A study of Mus musculus with 6 samples.

Results

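The transcription factors of the AP-1 and EGR immediate early families were examined in the proximal mouse incisor after Runx2 was targeted in Gli1-expressing cells. The 10 genes were taken by symbol. They are the FOS family (Fos, Fosb, Fosl1 and Fosl2), the JUN family (Jun, Junb and Jund) and the zinc finger genes Egr1, Egr2 and Egr3. All 10 were among the 25700 genes of the deposited count table, and all 10 were among the 19264 genes that passed the filter on low counts. RNA was sequenced from 6 C57BL/6 mice of 5 weeks, 3 of genotype Runx2fl/fl (control) and 3 of genotype Gli1-CreERT2;Runx2fl/fl (cKO). Every mouse carried the floxed Runx2 gene, and the treatment text, given for all samples, states tamoxifen in corn oil (1.5 mg per 10 g body weight) on 3 consecutive days at 1 month of age. Tissue was taken 1 week after induction. Cre was driven by Gli1, so recombination was aimed at cells that expressed Gli1 at induction. Which cells carried it 1 week later was not measured here. Controls carried no Cre, so loss of Runx2 cannot be told apart from effects of carrying Gli1-CreERT2 or of active Cre.

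FOS and JUN proteins pair through leucine zippers to form AP-1, which binds short DNA elements, while JUN proteins can also pair with each other. EGR proteins bind GC-rich elements through zinc fingers and are held back by the corepressors Nab1 and Nab2. Many genes of both families are switched on quickly and briefly when growth factors, load or stress activate MAP kinases, and also by handling of tissue. In bone, AP-1 acts in osteoblasts and in osteoclasts, and AP-1 and Runx2 act together on the collagenase gene Mmp13.

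Total estimated counts ranged from 53525185 to 66694240 per library, at which 1 count was worth 0.0149 to 0.0186 CPM (counts-per-million, scaled by TMM). Runx2 measured 49.0 to 62.6 CPM in the cKO libraries, below all controls (77.7 to 81.2 CPM), and Gli1 70.6 to 77.9 CPM against 89.7 to 207 CPM. All 12 dental mesenchyme markers were detected, but so were dental epithelium, macrophage and endothelial markers, so the samples were not pure mesenchyme. In such bulk samples, fewer cells of a type and less RNA per cell cannot be told apart. Libraries stood apart in 3 ways. Control 1 was the 1 male by Xist (0.596 CPM, against 2865 to 3390 in the others) and was high in skeletal muscle genes (372 CPM summed, against 12.6 to 16.2). Late enamel genes were abundant in control 2 and every cKO mouse, and genes of neutrophils and marrow stood out in cKO 1 and cKO 2 (44.4 and 19.8 CPM summed, against 1.34 to 2.80).

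None of the 10 genes passed the test over all genes (edgeR quasi-likelihood, adjusted p under 0.05), where 5 of 19264 genes, or 0.0260%, passed. Nevertheless 5 of the 10, namely Fos, Fosl2, Junb, Egr1 and Egr3, had each cKO mouse above each control, and none was lower in every cKO mouse. Among all genes tested, 11.1% lay above in this way and 12.0% below. An unadjusted edgeR p under 0.05 was reached by 4 members, all higher in cKO animals (Fosl2, Junb, Egr1 and Egr3), against 17.3% of all genes in either direction and 8.71% higher. Egr3 was the 1 member that passed with DESeq2 (adjusted p = 0.00226, with a range of 0.00226 to 0.552 over its 12 alternatives), which called 6.89% of all genes. The log2 fold change was above 0 for 8 of 10 members, against 50.0% of all genes, with a median of 0.29 against 0.00. The count of 4 was 2 (Egr1 and Egr3) without control 1 or without control 3, and 1 (Egr3) in the fit that carried late enamel level as a covariate. Over all genes the same count was 3325 of 19264 in the main fit. It was 3103 of 19736 without control 1, 2359 of 19700 without control 3 and 1446 of 19264 with the covariate. That covariate was high in every cKO mouse but in control 2 alone among controls, so it cannot be told apart from genotype.

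**Figure D1:**
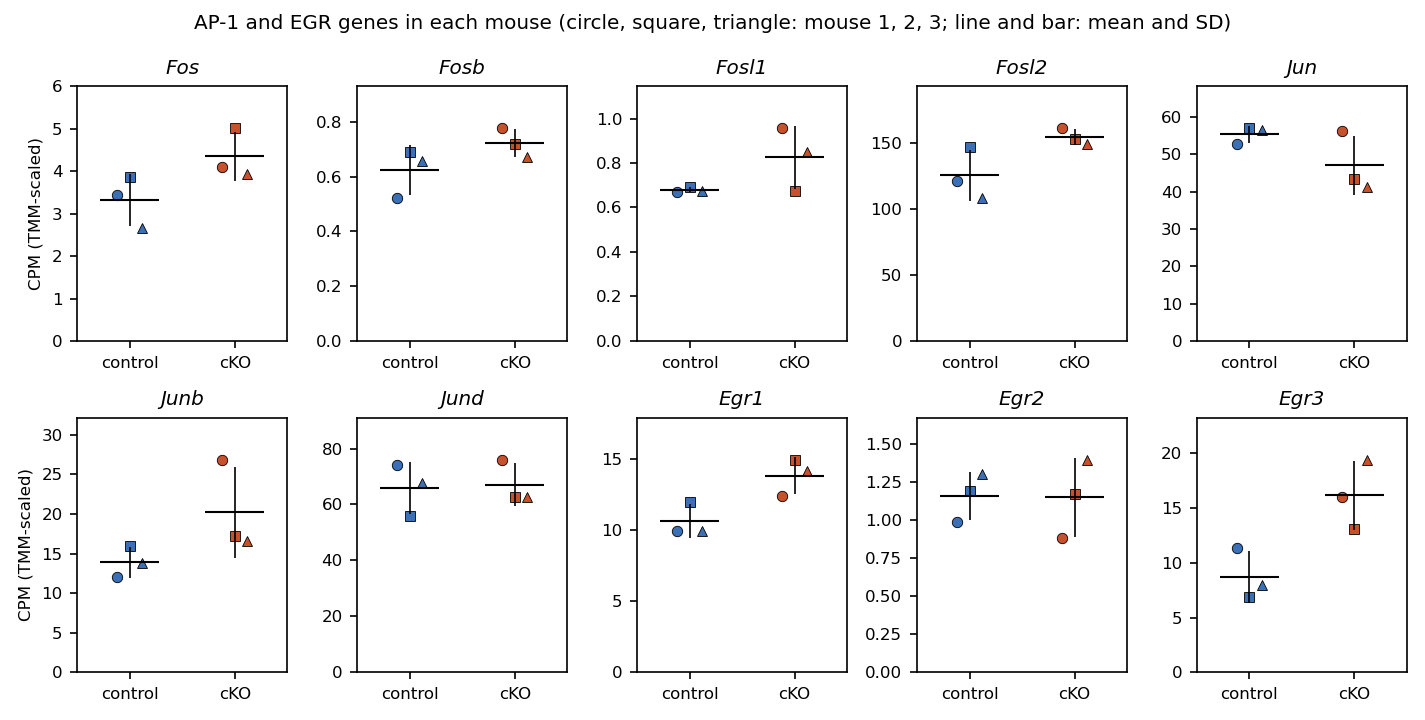
Level of each of the 10 genes in each mouse, in TMM-scaled CPM on axes that start at 0, with the mean and SD of 3 mice per group. The groups do not overlap for Fos, Fosl2, Junb, Egr1 and Egr3, while those of Fosb, Fosl1, Jun, Jund and Egr2 do.

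Per kb of exon length, taken over all annotated transcripts of a gene, Jund was the most abundant member and Fosb the least in both groups. The control means, in CPM per kb, were 39.5 for Jund, 17.4 for Jun, 13.0 for Fosl2 and 6.04 for Junb. They were 2.36 for Egr1, 1.97 for Egr3, 1.41 for Fos, 0.341 for Egr2, 0.334 for Fosl1 and 0.0999 for Fosb. In that order the neighbours Egr1 and Egr3, Egr3 and Fos, and Egr2 and Fosl1 had overlapping control ranges, and the other neighbours did not. In cKO mice the means ran from 40.2 for Jund to 0.116 for Fosb, the mean of Fosl2 (15.9) stood above that of Jun (14.7) with overlapping ranges, and that of Egr3 (3.66) stood above that of Egr1 (3.08), again with overlapping ranges. The mean of Fosl1 (0.406) likewise stood above that of Egr2 (0.338) in cKO animals, with overlapping ranges. Fosl2, which codes for a FOS protein that lacks the strong activation domain of Fos, supplied 87.5% ± 0.517 (SD, n = 3) of the per-length signal of the FOS family in controls and 87.1% ± 0.937 in cKO animals. Fos itself supplied 9.51% and 10.1%.

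**Figure D2:**
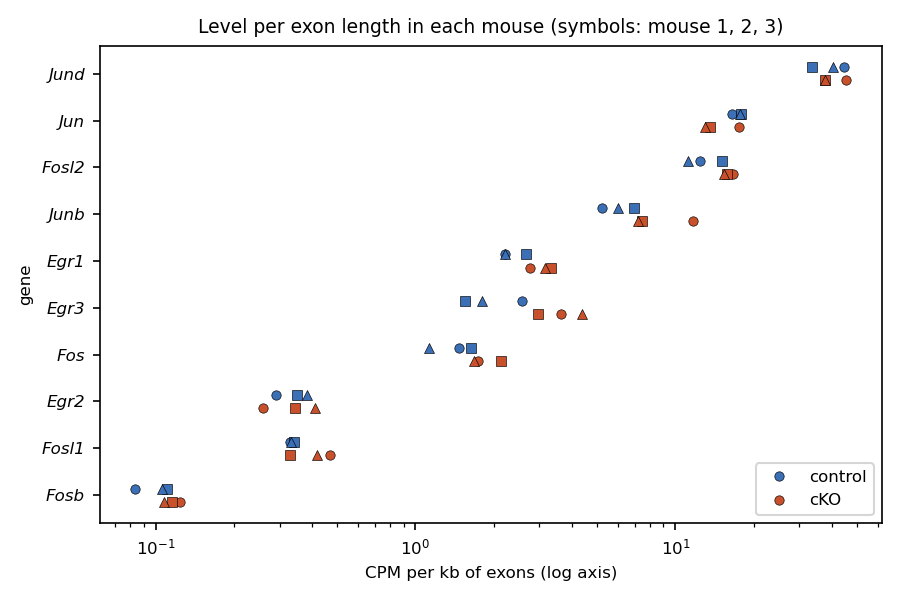
CPM per kb of exons on a log axis for each mouse, with genes ordered by their control mean. Jund, Jun, Fosl2 and Junb lie above 5 CPM per kb in every mouse, and Egr2, Fosl1 and Fosb lie below 0.5.

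The start regions of 4 AP-1 genes are shown because 3 of them (Fos, Junb and Fosl2) were higher in every cKO mouse and Jun had the opposite sign. Each stretch is the 120 bases before a RefSeq transcription start in GRCm38.p6, read 5′ to 3′ along the gene, and capitals mark every match to the motifs named below. They lie at chr12:85473770-85473889 (+ strand) for Fos, chr8:84978749-84978868 (- strand) for Junb, chr5:32136352-32136471 (+ strand) for Fosl2 and chr4:95052223-95052342 (- strand) for Jun.
Fos: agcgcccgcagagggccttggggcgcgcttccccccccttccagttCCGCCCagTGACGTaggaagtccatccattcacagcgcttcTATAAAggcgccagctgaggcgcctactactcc
Junb: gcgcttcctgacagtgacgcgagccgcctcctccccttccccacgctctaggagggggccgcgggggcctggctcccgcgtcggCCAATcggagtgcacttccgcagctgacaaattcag
Fosl2: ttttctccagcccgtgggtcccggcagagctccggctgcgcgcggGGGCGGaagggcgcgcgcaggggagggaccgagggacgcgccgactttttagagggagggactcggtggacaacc
Jun: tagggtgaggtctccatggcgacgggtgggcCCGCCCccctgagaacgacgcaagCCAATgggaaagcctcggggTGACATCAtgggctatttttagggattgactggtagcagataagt

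The Fos stretch held TGACGT, the half-site of the cyclic AMP response element, at 66 to 61 bases before the start and TATAAA at 33 to 28 bases before it. The Jun stretch held TGACATCA, which fits the 8-letter AP-1 or ATF site TGACNTCA, at 45 to 38 bases before the start. CCGCCC, in capitals in Fos and Jun, is the GC box GGGCGG on the other strand. Junb held CCAAT at 36 to 32 bases and Fosl2 held GGGCGG at 75 to 70 bases before the start. The Fosl2 stretch lies within the span of the gene given below (32135801 to 32157842). The start that it precedes is therefore downstream of the first base of that span. The search covered both strands of the 250 bases before the start in 32851 windows of the table, of which 11 belong to 7 members, with 5 overlapping or nearby windows for Egr2 alone. TGACGT was in 6.47% of all windows and in those of 2 members, Fos and Egr2. TGACNTCA was in 7.49% of all windows and in that of Jun. The AP-1 site TGANTCA was in 6.75% of all windows and in none of the 11. The CArG box, the element bound by serum response factor, was in 1.47% of all windows and, among the members, in windows of Egr2 only. The EGR core GTGGGCG was in 7.02% of all windows and in 1 window of Egr2. TATAAA was in 12.4% of all windows and in that of Fos. GGGCGG, the GC box, was in 32.7% of all windows and in those of 5 members. CCAAT was in 33.9% of all windows and in those of 3 members. TGACNTCA can contain TGACGT, and GTGGGCG can overlap GGGCGG. Windows for Fosl1, Egr1 and Egr3 were not analysed here.

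In the FOS family all 4 log2 fold changes were above 0, and the groups were separate for Fos and Fosl2. Fos (chromosome 12, 85473890 to 85477273, build mm10), the partner of JUN proteins that gives AP-1 its strongest activity, measured 3.44, 3.86 and 2.65 CPM in control 1 to 3. In cKO 1 to 3 it measured 4.10, 5.01 and 3.94 CPM. The lowest cKO mouse, cKO 3, was only just above the highest control, control 2. Fos had a log2 fold change of 0.39 (SE 0.18, edgeR adjusted p = 0.321). Fosl2 (chromosome 5, 32135801 to 32157842) measured 121, 147 and 108 CPM among controls and 161, 153 and 149 CPM among cKO animals. Here too control 2 came close to the cKO mice, which varied little among themselves. For Fosl2 the log2 fold change was 0.30 (SE 0.11, edgeR adjusted p = 0.230). A fit with late enamel level as a covariate gave 0.085 for Fosl2 and 0.20 for Fos.

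Fosb and Fosl1 were near the low end of what could be compared, and their groups overlapped. Fosb (chromosome 7, 19302696 to 19310051), which also gives a shortened protein known to accumulate with repeated stimulation, yielded 28, 46 and 39 counts among controls against 52, 45 and 42 among cKO animals. That is 0.521, 0.692 and 0.659 CPM against 0.776, 0.720 and 0.673 CPM. Its log2 fold change was 0.21 (SE 0.20, edgeR adjusted p = 0.644). Fosl1 (chromosome 19, 5447703 to 5455945), known for raising bone mass when overproduced in mice, yielded 36, 46 and 40 counts among controls against 64, 42 and 53 among cKO animals. Its level was 0.670, 0.692 and 0.676 CPM against 0.955, 0.672 and 0.849 CPM. The controls lay within a narrow band, and cKO 2 lay in that band while cKO 1 and cKO 3 were above it. The log2 fold change of Fosl1 was 0.28 (SE 0.20, edgeR adjusted p = 0.526). As much as 57.2% of the exonic bases of Fosl1 lie antisense to Ccdc85b (8.62 CPM in controls and 8.28 CPM in cKO animals). Whether strand was used in counting is not stated, so reads of the pair cannot be told apart.

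In the JUN family Junb and Jun had opposite signs. Junb (chromosome 8, 84974484 to 84978718), a JUN protein that can replace or oppose Jun and is needed for normal bone formation, measured 12.0, 15.9 and 13.8 CPM among controls. Among cKO animals it measured 26.8, 17.2 and 16.6 CPM. The mouse cKO 1 stood far above the other two cKO mice, which exceeded control 2 by little. The log2 fold change of Junb was 0.54 (SE 0.20, edgeR adjusted p = 0.240), and it was 0.28 when late enamel level was a covariate. Jun (chromosome 4, 95049034 to 95052222), the founding JUN gene, measured 52.8, 56.9 and 56.4 CPM among controls and 56.1, 43.5 and 41.3 CPM among cKO animals. Only cKO 1 reached the control range, and the other two cKO mice were below it. The log2 fold change of Jun was -0.24 (SE 0.12, edgeR adjusted p = 0.347), and without cKO 1 it was -0.38 (edgeR adjusted p = 0.136, with 0.136 to 0.721 over its alternatives). Jund (chromosome 8, 70698949 to 70700616), the JUN gene that is on in most resting cells, measured 74.2, 56.0 and 67.7 CPM among controls and 75.9, 62.5 and 62.7 CPM among cKO animals. Control 1 and cKO 1 were the highest of their groups and control 2 the lowest of all. For Jund the log2 fold change was 0.024, with a 95% interval of -0.26 to 0.31 (edgeR adjusted p = 0.939), and its sign turned without control 2 (-0.081) or without cKO 1 (-0.071). Of the exonic bases of Jund, 52.6% lie antisense to Gm11175, whose mean was 1.81 CPM in controls against 4.41 CPM in cKO animals. Smaller stretches of Junb (7.52%, with Prdx2) and Jun (7.28%, with Junos) lie antisense to other genes.

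Because Junb and Jun had opposite signs, their per-length ratio was taken within each mouse, a measure that does not depend on library scaling. It was chosen after the values had been seen. Junb stood at 0.315, 0.388 and 0.339 of the level of Jun in control 1 to 3 and at 0.662, 0.548 and 0.556 in cKO 1 to 3. All 3 cKO mice were above all 3 controls, as they already were for Junb alone, though by little in cKO 2 and cKO 3. The pair was picked for opposite signs in these same mice, so separation of its ratio is no further support for a difference. The mean ratio was 0.347 ± 0.0371 in controls and 0.589 ± 0.0640 in cKO animals (SD, n = 3; exact two-sided permutation test on the log ratio, p = 0.1, the smallest that 3 against 3 mice allow). Of the per-length signal of the JUN family, Junb supplied 9.68% ± 2.02 in controls and 13.6% ± 1.73 in cKO animals, Jun 27.7% ± 2.80 and 23.1% ± 0.568, and Jund 62.6% ± 4.81 and 63.3% ± 2.18 (SD, n = 3). This was 1 of 5 such ratios between members computed. The ratio of Fosl2 to Jun also had separate groups, with 0.754, 0.851 and 0.634 in controls and 0.945, 1.16 and 1.19 in cKO animals (exact permutation p = 0.1), while those of Junb to Jund, Egr3 to Egr1 and Egr3 to Egr2 overlapped. Fosl2 alone also had separate groups, so its ratio to Jun adds no support either. Adjusted over the 5 ratios (Benjamini-Hochberg), the lowest exact permutation p was 0.25.

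**Figure D3:**
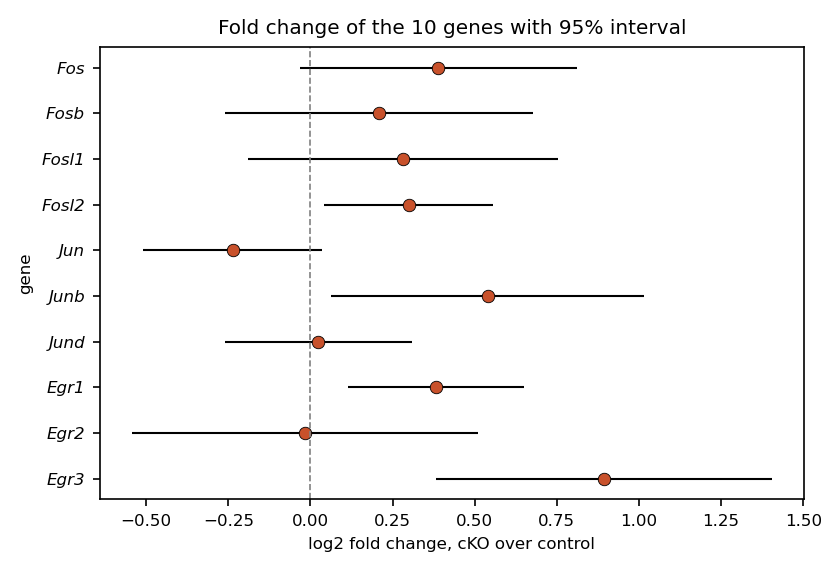
Log2 fold change of each gene, cKO over control, with its 95% interval from the edgeR fit. The intervals of Fosl2, Junb, Egr1 and Egr3 lie above 0, and those of the other 6 genes include 0.

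Among the EGR genes, Egr3 had the largest difference of all 10 members and Egr2 the smallest. Egr3 (chromosome 14, 70077203 to 70082614), itself a target of growth factor and calcium signals, measured 11.3, 6.82 and 7.92 CPM among controls. Among cKO animals it measured 16.0, 13.0 and 19.3 CPM. The lowest cKO mouse was above control 1, the highest control, and control 1 stood apart from the other two controls. Egr3 was 1.86-fold as high in cKO animals, from 8.69 ± 2.35 to 16.1 ± 3.16 CPM (SD, n = 3; log2 fold change 0.89, SE 0.22, edgeR adjusted p = 0.117). Over the 12 alternatives the log2 fold change of Egr3 ran from 0.74 without cKO 3 to 1.17 when late enamel level was a covariate, and only DESeq2 brought it past the threshold.

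Egr1 (chromosome 18, 34859823 to 34864984), the most widely induced gene of its family, measured 9.90, 12.0 and 9.92 CPM among controls and 12.4, 14.9 and 14.2 CPM among cKO animals. The gap between cKO 1 and control 2 was small, and the other two cKO mice were clear of the controls. Egr1 had a log2 fold change of 0.38 (SE 0.11, edgeR adjusted p = 0.166; DESeq2 adjusted p = 0.0504, and 0.0504 to 0.765 over its 12 alternatives). Egr2 (chromosome 10, 67535475 to 67542188), known for its part in Schwann cell myelination and hindbrain patterning, measured 0.987, 1.19 and 1.30 CPM among controls and 0.881, 1.17 and 1.39 CPM among cKO animals. Its highest and lowest values both came from cKO mice. For Egr2 the log2 fold change was -0.017, with a 95% interval of -0.54 to 0.51 (edgeR adjusted p = 0.978). It rested on 53 to 87 counts per library.

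The mice differed among themselves in a way shared by several members. Control 2 was the highest control for 7 of 10 members, and control 1 the lowest control for 6. Among all 6 mice, cKO 1 was the highest for 5 members (Fosb, Fosl1, Fosl2, Junb and Jund) and control 1 the lowest for 4. The median profile of the 8 members with at least 1 CPM, as log2 deviations from each gene's mean, was -0.16, 0.013 and -0.27 in control 1 to 3 and 0.17, 0.10 and 0.086 in cKO 1 to 3. Of 10032 other genes with at least 10 CPM, the 5 whose deviations were closest to this profile over the 6 libraries were Ctns, Ctsa, Fbxw9, Psap and Acox3. Their mean absolute difference from it was 0.023 to 0.030 on the log2 scale. Of the 5, Ctsa and Psap code for lysosomal proteins and Ctns for the lysosomal cystine transporter. Whether the 5 genes share a role was not tested. This likeness is a description of 6 libraries, with no test.

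The AP-1 partners and the EGR corepressors gave no call either. Of 13 ATF, BATF, JDP and MAF genes tested, 0 passed (edgeR, adjusted over all genes), 8 were above 0 and 5 below, and 3 had an unadjusted p under 0.05. That p was reached by 17.3% of all genes tested. The small MAF gene Mafk, whose protein lacks an activation domain, went from 14.3 ± 0.185 to 17.7 ± 1.12 CPM (log2 fold change 0.31, edgeR adjusted p = 0.108). Mafk passed with DESeq2. Nab1 and Nab2 had log2 fold changes of -0.19 and 0.095, with overlapping groups (edgeR adjusted p = 0.434 and 0.660).

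Other immediate early genes were listed by role, 20 transcription factors and related regulators and 31 feedback and signalling genes, 51 distinct genes in all. None of the 51 passed with edgeR over all genes, 35 were above 0 and 16 below, and the median log2 fold change was 0.15. An unadjusted edgeR p under 0.05 was reached by 17 genes that were higher and 6 that were lower, and DESeq2 called 11 higher and 5 lower. In 17 of the 51 every cKO mouse was above every control, and in 7 every cKO mouse was below. Among all genes tested, 11.1% lay above in this way and 12.0% below. Of all 19264 genes, 1678 that were higher and 1647 that were lower had an unadjusted edgeR p under 0.05. DESeq2 called 698 of them higher and 629 lower. Klf2, a factor induced by flow and found in endothelium and macrophages, measured 16.3, 16.8 and 15.7 CPM among controls and 23.2, 21.2 and 21.7 CPM among cKO animals. Myc, the growth regulator, measured 33.5, 33.3 and 32.1 CPM against 40.5, 41.5 and 45.1 CPM. Both genes were tight within groups (log2 fold changes 0.44 and 0.36, edgeR adjusted p = 0.0645 and 0.0695). Trib1, a pseudokinase that leads C/EBP proteins to breakdown, measured 46.1, 36.7 and 55.8 CPM among controls and 22.5, 26.7 and 19.0 CPM among cKO animals. Rhob, a small GTPase of endosomes, went from 249 ± 22.9 to 186 ± 10.7 CPM. The log2 fold changes of Trib1 and Rhob were -1.02 and -0.42 (edgeR adjusted p = 0.0734 and 0.0878).

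**Figure D4:**
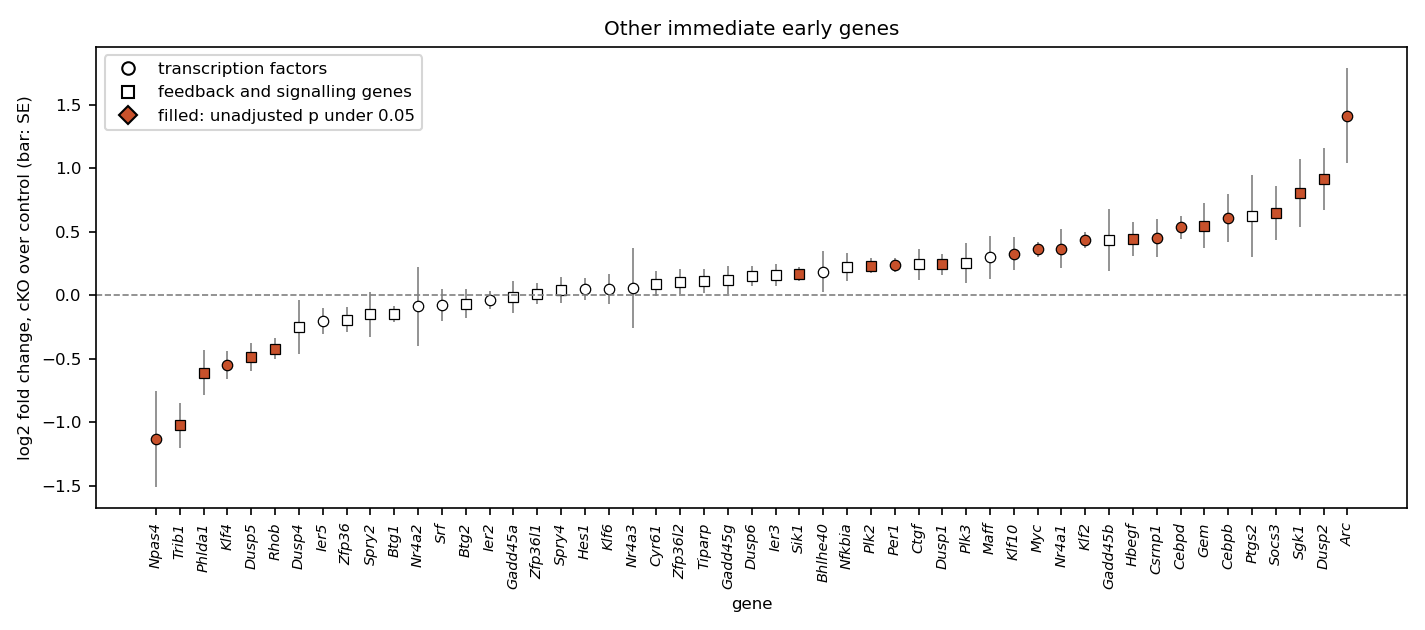
Log2 fold change, cKO over control, of 51 other immediate early genes in rising order, with bars for the SE, circles for transcription factors and squares for feedback and signalling genes. Filled symbols have an unadjusted edgeR p under 0.05, 17 of them above 0 and 6 below.

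The other immediate early genes described next were chosen after their values had been seen, and they differed among themselves. Dusp2, a nuclear MAP kinase phosphatase, had a log2 fold change of 0.91, the kinase gene Sgk1 one of 0.81, and Socs3, an inhibitor of cytokine signalling, one of 0.65. The C/EBP factor genes Cebpb and Cebpd had 0.61 and 0.54. The edgeR adjusted p-values of these 5 genes ran from 0.0735 for Cebpd to 0.203 for Sgk1, and DESeq2 called all 5 higher. The groups did not overlap for 4 of them, and did for Cebpb. Klf4, Dusp5 and Phlda1 went the other way, with log2 fold changes of -0.55, -0.48 and -0.61. Each had every cKO mouse below every control (edgeR adjusted p = 0.0878, 0.105 and 0.152), and DESeq2 called each lower. Other genes lay near 0. Ier2 measured 14.8 ± 0.215 CPM among controls and 14.5 ± 0.856 CPM among cKO animals (SD, n = 3). Atf3, the stress-induced ATF gene, had a log2 fold change of -0.14, Zfp36, which destabilizes mRNAs, one of -0.19, and Btg2 one of -0.065. Dusp1, the phosphatase that switches MAP kinases off, went from 13.4 ± 0.908 to 15.9 ± 0.927 CPM (log2 fold change 0.24, edgeR adjusted p = 0.205). Nr4a1, an orphan nuclear receptor, had a log2 fold change of 0.37 (edgeR adjusted p = 0.275). For both Dusp1 and Nr4a1 every cKO mouse was above every control. The neuronal activity genes Arc and Npas4 had log2 fold changes of opposite sign at low level. Arc measured 1.60, 0.812 and 1.08 CPM among controls and 4.37, 1.81 and 3.09 CPM among cKO animals, a log2 fold change of 1.41 that DESeq2 called. Npas4 had a log2 fold change of -1.13 (edgeR adjusted p = 0.134 for Arc and 0.203 for Npas4).

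Kinases and factors that act above the members differed little. Of 22 genes for MAP kinases, ELK factors, serum response factor and its partners, CREB and MEF2 factors, 0 passed with edgeR. Their median log2 fold change was 0.011. An unadjusted p under 0.05, reached by 17.3% of all genes, was seen for 2 of the 22. These were Mef2d (0.20, 58.9 ± 1.31 to 67.5 ± 1.33 CPM) and Elk3 (0.14, 70.6 ± 2.91 to 78.0 ± 2.69 CPM), with edgeR adjusted p of 0.110 and 0.244. DESeq2 called 1 gene of the list, Mef2d (DESeq2 adjusted p = 0.0196). Heat shock genes, which also respond to tissue handling, had a median of -0.11, with 2 of 11 above 0 and 9 below. Hspa1a measured 30.5, 27.3 and 28.8 CPM among controls and 40.9, 30.2 and 33.9 CPM among cKO animals (log2 fold change 0.28, edgeR adjusted p = 0.271), and the chaperone Hsp90aa1 had a log2 fold change of -0.27 (adjusted p = 0.316 by edgeR). Their groups overlapped, and no gene of the list passed. An unadjusted p under 0.05 was seen for Hspa1a alone, and DESeq2 called 0.

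Known targets of the 2 families went both ways. Of 15 AP-1 targets tested, 8 were above 0 and 7 below (median log2 fold change 0.018), 0 passed with edgeR, and 5 had an unadjusted p under 0.05. Of all genes tested, 17.3% reached that p. Mmp13 measured 293, 81.3 and 492 CPM among controls and 33.4, 36.1 and 19.2 CPM among cKO animals, with separate groups and a wide spread among controls (log2 fold change -3.29, SE 0.62, edgeR adjusted p = 0.0831). It is also a target of Runx2. Hmox1, the heme oxygenase, went the other way, from 15.2 ± 2.11 to 22.4 ± 1.75 CPM (log2 fold change 0.55, edgeR adjusted p = 0.0931). With DESeq2, 1 AP-1 target was called higher, Hmox1, and 1 lower, Mmp13. Of 15 EGR targets, 9 were above 0 and 6 below (median 0.095), 0 passed with edgeR, and 5 had an unadjusted p under 0.05. Pmp22, a myelin protein that mesenchymal cells also make, went from 105 ± 6.44 to 73.5 ± 7.64 CPM (log2 fold change -0.52, edgeR adjusted p = 0.0714). DESeq2 called 1 EGR target, Pmp22, lower and 0 higher. The growth factor gene Pdgfb went from 19.2 ± 1.25 to 23.5 ± 1.96 CPM (0.29, edgeR adjusted p = 0.159).

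Markers of several other cell types also differed in level between the groups, though none passed with edgeR. All 10 macrophage markers had a log2 fold change above 0, and their summed level was 675, 653 and 513 CPM among controls and 822, 914 and 990 CPM among cKO animals. All 8 endothelial markers were also above 0, with sums of 528 to 578 CPM in controls and 622 to 650 CPM in cKO animals. DESeq2 called 9 of the macrophage and 5 of the endothelial markers higher. Of all 19264 genes it called 698 higher and 629 lower. Late enamel genes summed to 112, 1798 and 98.0 CPM in control 1 to 3 and to 2624, 1445 and 1107 CPM in cKO 1 to 3, so control 2, often the highest control for the members, was within the cKO range. Of 8 Schwann cell and nerve markers 6 were below 0, and their sums of 82.6 to 117 CPM in controls overlapped those of 71.7 to 83.3 CPM in cKO animals. Of the dental mesenchyme markers 11 of 12 were above 0, of the dental epithelium markers 3 of 8 and of the pericyte and smooth muscle markers 3 of 8. The epithelial sums (2072 to 2708 CPM in controls, 2054 to 3277 CPM in cKO animals) and the pericyte and smooth muscle sums (1019 to 1201 against 908 to 1064 CPM) overlapped. Most of the last sum came from Rgs5, a pericyte gene, at 587 and 588 CPM on average. The contractile genes Acta2, Tagln, Myh11 and Cnn1, named after their values were seen, were lower for every cKO mouse than for every control. Their log2 fold changes were -1.26, -1.41, -0.79 and -2.86 (edgeR adjusted p = 0.0669, 0.0833, 0.0878 and 0.0610), and DESeq2 called these 4 lower and 1 marker of the list, Cspg4, higher. The dental mesenchyme sums did not overlap, at 12598 to 21006 CPM in controls and 24073 to 41452 CPM in cKO animals, mostly from the collagen gene Col1a1. Of those 12 markers, 7 had every cKO mouse above every control, and DESeq2 called 5 higher. Among all genes tested, 11.1% had every cKO mouse above every control and 12.0% had every cKO mouse below. None of the macrophage, endothelial, late enamel or Schwann cell markers was at 0. The part of these cell types in the values of the AP-1 and EGR genes was not tested. Late enamel level, as mean log2 CPM, was 3.24, 7.16 and 2.76 in control 1 to 3. It was 7.55, 6.64 and 6.54 in cKO 1 to 3. Only control 2 breaks the match with genotype, so the fits with this covariate cannot tell late enamel level and genotype apart.

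**Figure D5:**
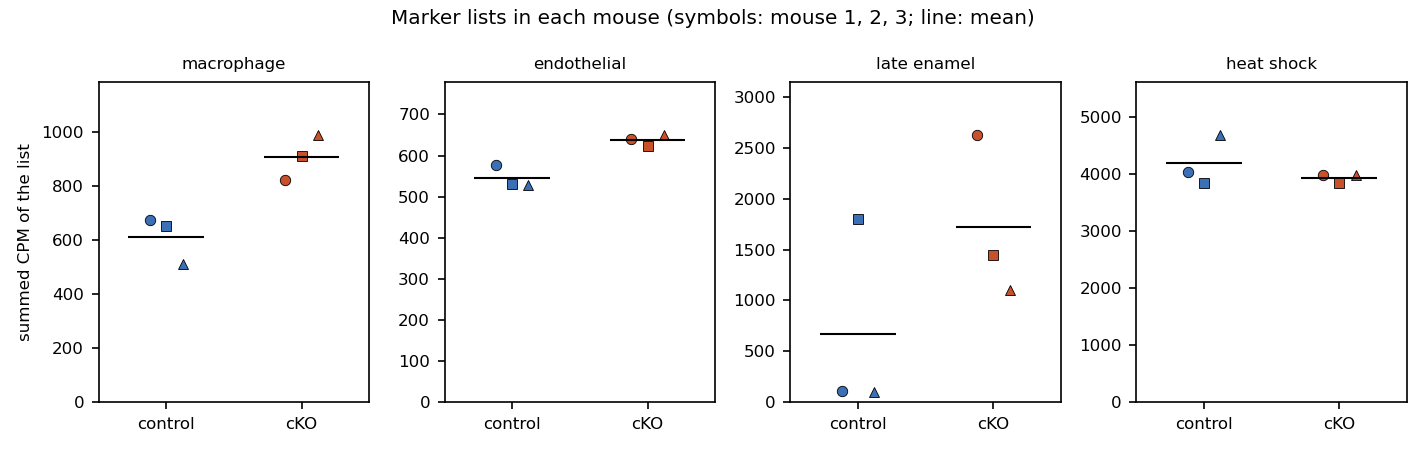
Summed CPM of 4 gene lists in each mouse, on axes that start at 0, with the group mean as a line. Macrophage and endothelial sums are higher for each cKO mouse than for each control, late enamel sums are high in control 2 and the cKO mice, and heat shock sums overlap.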

How the data were processed

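Reads were handled with STAR 2.6.1d and Partek on mm10, per the submitters' processing notes. The annotation, the counting settings and the use of strand are not stated there. The authors deposited estimated counts per gene, of which 45.6% to 48.0% per library were whole (tolerance 1e-09). These were rounded. Libraries are mice, numbered in accession order, and the replicate comparison found none that repeats another (chi-square per degree of freedom 46.0 to 73.3). The second deposited table, a normalized form of the counts, was not used.

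Low genes were removed by filterByExpr (at least 10 counts, total at least 15) and libraries scaled by TMM. Differences were tested with the quasi-likelihood F-test of edgeR 4.0.16 (R 4.3.3) on all 6 libraries without covariates, adjusted by Benjamini-Hochberg over all tested genes with a threshold of 0.05. The labels number each mouse but give no litter or batch. Alternatives were DESeq2 1.42.0, other scalings and filters, a late enamel covariate and leaving out each mouse, 12 in all. In simulated counts of this comparison (19004 genes), a log2 change of 1 was recovered for 65.7% of changed genes and one of 2 for 94.8%, and 12 genes left unchanged in the simulation were called as well. In the data themselves 5 of 19264 genes passed, and some larger changes missed the threshold. The simulated shares therefore cannot be carried over to the data.

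Exon lengths and overlaps came from GENCODE M21, and start regions from a RefSeq table (GRCm38.p6). The exon length of a gene counts once each base that lies in an exon of any of its transcripts. Levels per kb and family shares depend on that choice. The coordinates of the deposited table had the end reduced by 1, since it gives the position after the last base. The members and all 17 other lists (205 distinct symbols, some of them synonyms) were chosen with earlier results of these data known. Named genes are all members, Runx2, and from each pathway list up to 4 genes that passed, or if none did the 2 with the smallest p; 1 gene that this rule takes is not reported here. Gli1, the marker genes named singly and the further immediate early genes described were chosen after their values were seen. The 5 genes most like the members are those of smallest mean absolute difference in centred log2 CPM.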

Additional observations from a re-analysis of the deposited data

How the results depend on the processing

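The direction of 8 of the 10 members was the same under all 12 alternatives (11 for Fosb and Fosl1, which the filter of 1 CPM removed). That of Egr2 turned to 0.038 when late enamel level was a covariate, to 0.0012 without control 2, to 0.073 without control 3 and to 0.15 without cKO 1, and that of Jund to -0.081 without control 2 and -0.071 without cKO 1. Leaving out 1 mouse at a time gave -0.18 to 0.15 for Egr2 and -0.081 to 0.12 for Jund. The cause was not tested. The median log2 fold change of the members, 0.29, ranged from 0.19 when late enamel level was a covariate to 0.36 without control 2. Under the 11 alternatives with edgeR, 0 members and 0 of the other immediate early genes passed, while DESeq2 called 1 member (Egr3) and 16 of the others. DESeq2 called 1327 genes in all, and edgeR called 0 with the late enamel covariate and between 0 and 72 when 1 mouse was left out. RLE or upper-quartile scaling moved the median of all genes by at most 0.0068. No paired analysis was possible because the labels give the mice no shared replicate numbers. Their protocol text does speak of pairs but not of which mice formed one, so the unpaired fit may leave a pairing unused. In simulated counts a 2-fold change was recovered in part only, and smaller ones were not simulated. With 3 mice per group, far larger changes in the data also missed the threshold. Examples are Cnn1 and Mmp13, with log2 fold changes of -2.86 and -3.29 (edgeR adjusted p = 0.0610 and 0.0831). A member that did not pass may thus still differ. Fosb, Fosl1 and Egr2 rested on at most 87 counts per library.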
